A study of Mus musculus with 4 samples.

Results

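The AP-1 and EGR immediate early genes were followed in tumours of iNRAS-475, a mouse melanoma cell line, during the days after doxycycline was withdrawn. The group comprised Fos, Fosb, Fosl1, Fosl2, Jun, Junb, Jund, Egr1, Egr2 and Ier3. All probe sets that the platform annotation assigned to 1 of these 10 symbols were taken, which gave 15 of the 45037 probe sets of the Affymetrix mouse array, for 10 of the 18193 genes it measured by such probe sets. Cells had been injected into the skin of nude mice, a strain that lacks a thymus, and the mice drank 2 mg/ml doxycycline for 6 weeks until tumours measured 200 to 500 mm3. The control was 1 tumour from a mouse kept on doxycycline, and the other arrays came from 1 tumour each at 24, 48 and 72 h after withdrawal. All 4 tumours shared the cell line, the host and the earlier exposure to doxycycline. The promoter that drives the inducible NRAS, and whether the line is a single clone, are not given in the sources used here.

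Immediate early genes are transcribed within minutes of a growth signal, without the need for new protein. ERK, the last kinase of the RAS cascade, phosphorylates transcription factors of the ternary complex, which sit with SRF on a DNA element named the CArG box and switch on Fos and Egr genes. FOS and JUN proteins pair through leucine zippers into AP-1 dimers, which bind the letters TGAGTCA or TGACGTCA. ERK also prolongs the life of several of these proteins, and in melanoma Fosl1, which encodes FRA1, is a well known readout of the cascade. EGR proteins are zinc finger factors that bind GC-rich DNA such as GCGTGGGCG.

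The DNA just before the start site is shown for 4 members with different time courses, since it is there that such factors can bind. The stretches were picked because they carry motifs described below, and for Egr2 the window with the most matches was taken. They therefore do not represent the windows of all members. The sequences are those of RefSeq on GRCm38.p6. Of the 10 members, 8 had at least 1 start site in that table, with 12 windows in all, and Fosl1 and Egr1 were not among them. Each line gives the 160 bases that end at the base before the start, 5′ to 3′ on the strand of the gene. Capitals mark matches, on either strand, to the CArG box, to the AP-1 motif TGAGTCA, to the AP-1 and ATF motif TGACGTCA and its variant TGACATCA, to its core TGACGT, to the ETS motif CCGGAA, to the EGR motif GCGTGGGCG and its variant GCGGGGGCG, or to the TATA box TATAAA. The core lies within the longer AP-1 and ATF motif, so a match to the longer motif is also one to the shorter. The Egr2 stretch is chr10:67537406-67537565 (plus strand), that of Fos chr12:85473730-85473889 (plus strand), that of Jun chr4:95052223-95052382 (minus strand) and that of Fosl2 chr5:32136312-32136471 (plus strand).
Egr2: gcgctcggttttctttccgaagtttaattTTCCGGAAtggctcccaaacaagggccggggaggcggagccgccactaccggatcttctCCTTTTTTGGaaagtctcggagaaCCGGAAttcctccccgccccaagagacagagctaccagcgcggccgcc
Fos: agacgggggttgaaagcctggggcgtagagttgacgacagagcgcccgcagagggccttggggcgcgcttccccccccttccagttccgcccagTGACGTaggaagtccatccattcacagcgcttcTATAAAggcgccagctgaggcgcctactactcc
Jun: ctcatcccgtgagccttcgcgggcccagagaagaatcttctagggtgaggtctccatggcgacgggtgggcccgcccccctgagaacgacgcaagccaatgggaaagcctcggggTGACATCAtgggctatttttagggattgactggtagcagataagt
Fosl2: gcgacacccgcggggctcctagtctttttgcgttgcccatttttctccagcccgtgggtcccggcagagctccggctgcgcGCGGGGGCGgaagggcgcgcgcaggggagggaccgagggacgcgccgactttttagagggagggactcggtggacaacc

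Within the 250 bases before a start site, a CArG box was found in 1.47% of all 32851 windows of the table. Among the 8 members with a window it was found before Egr2 alone, in 4 overlapping or neighbouring windows. Bases further upstream were not searched and Egr1 had no window, so a CArG box there would not be seen. In the stretch printed it lies 72 to 63 bases before the start, between copies of CCGGAA, the letters that ETS factors such as the ternary complex factors can bind, which were present in 12.0% of all windows. Jun carries TGACATCA 45 to 38 bases before its start, a variant of the AP-1 and ATF element found in 2.93% of windows. Fos has TGACGT (6.47% of windows) 66 to 61 bases before its start and TATAAA (12.4%) nearer to it, and TGACGT was also in 3 of the Egr2 windows with a CArG box. GCGGGGGCG, a variant of the EGR element found in 2.57% of windows, lies 79 to 71 bases before the Fosl2 start and 50 to 42 bases before that of Fosb. Matches to TGAGTCA were in 4.46% of all windows, to TGACGTCA in 1.55% and to GCGTGGGCG in 0.536%, and none of these were in the 12 windows of the members. None of the letters searched were in the windows of Jund, Junb and Ier3 or in 1 further window of Egr2. A match is a description of the letters and does not show that a factor binds.

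The values are the deposited intensities, on a linear scale, with medians from 33.3 to 34.0 on the 4 arrays. Differences are given between log2(intensity + 32) values, which understates those of dim genes, and 2-fold stands for a difference of 1 or more on that scale. For a gene with several probe sets, the brightest stands for the gene. There was 1 array per condition, so no difference has a replicate error, and the number of arrays limits the precision. The tumour, the animal and the time cannot be told apart. Since each value is from whole tumour tissue, fewer cells of a type and less RNA per cell cannot be told apart either. Of the 10 members, 9 passed the filter on low values, which left 13522 genes in all.

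The members parted into a lower and a higher set after withdrawal. At 48 h Ier3, Fosl1 and Egr2 were 2-fold lower than on doxycycline and Jun was 2-fold higher, and at 72 h Ier3, Fosl1, Egr2 and Junb were 2-fold lower and Fosl2 was 2-fold higher. At 24 h 0 of 9 members were 2-fold different in either direction, against 0.0666% of all genes lower and 0.266% higher. At 48 h the counts were 3 of 9 lower and 1 of 9 higher, where 1.04% and 0.754% of all genes were. At 72 h they were 4 of 9 lower and 1 of 9 higher, where 1.63% and 2.29% of all genes were. At a limit of 1.5-fold the members lower were 0, 4 and 5 of 9 at 24, 48 and 72 h, where 0.518%, 3.4% and 4.29% of all genes were, and those higher were 0, 1 and 2 of 9, where 1.32%, 3.13% and 6.58% were. The members had median differences of -0.04, -0.33 and -0.94 at the 3 times, and that of all genes was 0.00 each time. With a pseudocount 4 times as large Ier3 alone was 2-fold lower at 48 and 72 h and no member was 2-fold higher at either time. The members and the lists below were chosen with earlier results of these data known, so their counts are not independent evidence of a direction.

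**Figure D1:**
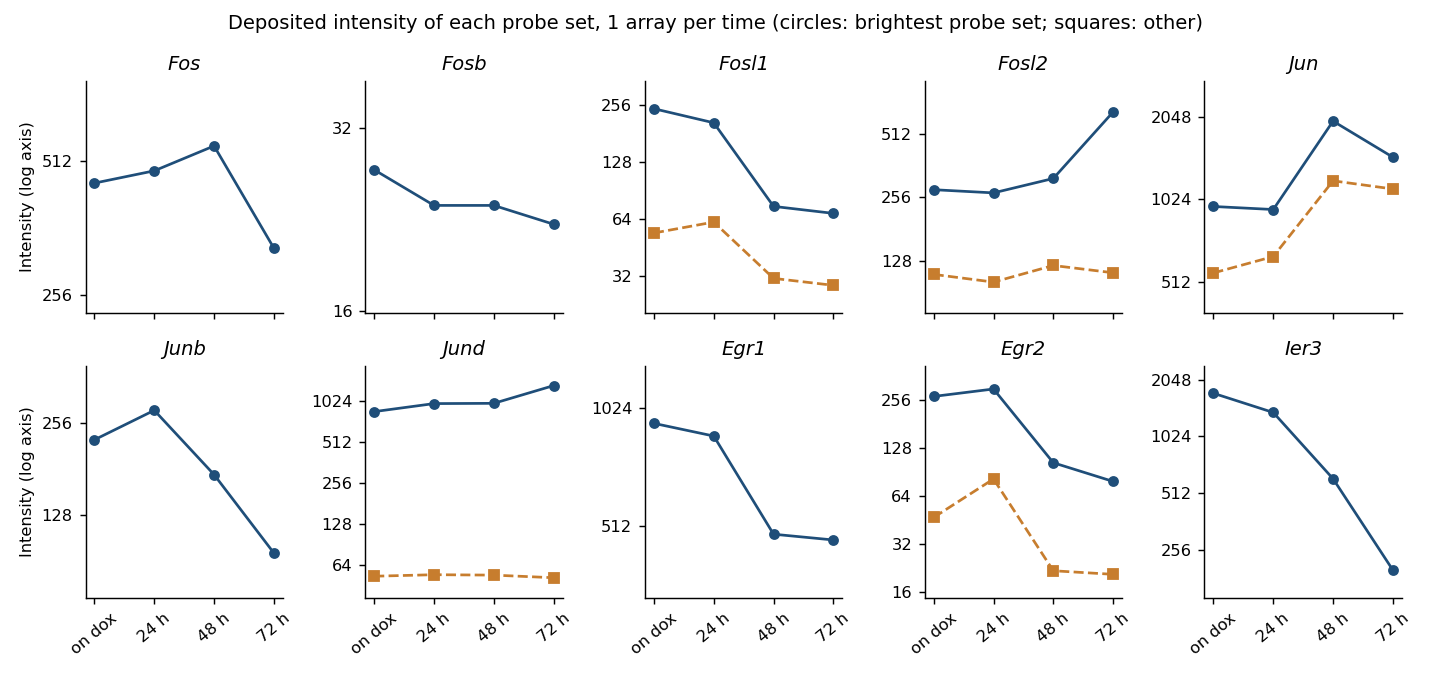
Deposited intensity (log axis, with its own range in each panel) of all 15 probe sets of the 10 members on the control array and at 24, 48 and 72 h, 1 array each; circles and solid lines are the brightest probe set of a gene, squares and dashed lines the other one. Ier3 drops from 1732 to 201, Fosl1, Egr1 and Egr2 drop between 24 and 48 h, and both Jun probe sets lie higher at 48 and 72 h than on doxycycline.

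Ier3, which encodes a short-lived stress protein that ERK phosphorylates and that affects survival of the cell, had the widest range of any member. Its 1 probe set read 1732 in the control tumour and 1371, 611 and 201 after 24, 48 and 72 h. The level was thus lower at each later time, and the control was 8.62 times as bright as the 72 h array. The differences from the control were -0.33, -1.46 and -2.92, and 11 of the 13522 genes were lower still at 72 h. The drop between 48 and 72 h was also large, at -1.47, with 13 genes lower. The Ier3 probe set ends in _a_at, a class that can match several transcripts of a gene.

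Fosl1 encodes FRA1, an AP-1 subunit without the activating segment of FOS. Its brighter probe set read 244 on the control array, 206 after 24 h, 74.7 after 48 h and 68.6 after 72 h. The first pair of arrays was high and the last pair low, with most of the difference, -1.16 of -1.46, arising between 24 and 48 h. The differences from the control were -0.22, -1.37 and -1.46, and at 48 h 43 genes were lower. The dimmer Fosl1 probe set read 54.0, 61.7, 31.1 and 28.6 on the same arrays. It had the same split between the early and the late pair, but with smaller differences of -0.45 at 48 h and -0.51 at 72 h. When the probe sets of Fosl1 were averaged, its differences were -0.91 at 48 h and -0.98 at 72 h, under the 2-fold limit.

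Egr1 and Egr2, zinc finger factors induced by serum and by ERK, shared this timing. Egr1 read 934 on doxycycline and, in order of time off the drug, 867, 489 and 473. Its late pair of arrays was thus at about the same level, 1.91 and 1.97 times below the control. The differences of -0.89 and -0.94 fell short of 2-fold on this scale but lay below the central 95% of all genes, which ran from -0.68 to 0.64 at 48 h and from -0.80 to 0.96 at 72 h. Egr2, also known as a master regulator of myelinating Schwann cells, which come from the neural crest as melanocytes do, read 270.4, 301, 104 and 79.3. It was highest at 24 h and lowest at 72 h, with differences from the control of 0.14, -1.15 and -1.44. Its dimmer probe set had the same order of arrays, at 47.2, 82.2, 21.9 and 20.8, with differences of 0.53, -0.56 and -0.59. Averaged over its probe sets, Egr2 was at -0.86 at 48 h, under the 2-fold limit. Among the promoter stretches shown above, that of Egr2 is the one with a CArG box, and Egr1 had no window to search.

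Junb, which encodes a JUN protein that often restrains growth, was lower only on the late arrays. It read 226 in the control tumour and 282, 174 and 96.2 after 24, 48 and 72 h. It was highest at 24 h and then lower at each time, and the difference of -1.01 at 72 h was just past the 2-fold limit. The steps of -0.61 from 24 to 48 h and -0.68 from 48 to 72 h were of about equal size, unlike those of Fosl1, Egr1 and Egr2.

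Fos, widely used as a marker of recent stimulation of a cell, followed neither set. It read 456 on the control array, 486 after 24 h, 553 after 48 h and 326 after 72 h. The 48 h tumour was thus the highest and the 72 h tumour the lowest, and the whole range was 1.70-fold. The drop from 48 to 72 h, -0.71, left 75 of 13522 genes lower. Relative to Fosl1 on the same array, Fos was higher than in the control by 1.64 at 48 h and by 1.01 at 72 h on the log2 scale. Relative to Egr1 it was higher by 1.15 and 0.49.

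Fosb, which is induced with Fos in many cells, was dim. Its probe set read 27.4, 23.9, 23.9 and 22.3, below the median intensity of each array, and it did not pass the filter on low values. The values at 24 and 48 h were equal, as such ties were frequent in the deposited table, where 48.0% of probe sets had one. No change of Fosb can be read at this level.

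Jun encodes the JUN protein, which pairs with FOS proteins or with ATF factors and is activated by the JNK kinases. Its brighter probe set read 963 on doxycycline and, in order of time off the drug, 939, 1971 and 1456. The other read 551, 633, 1194 and 1115. On both, the late pair of arrays was above the early pair, and the 48 h tumour was the highest. The differences from the control were 1.01 and 0.58 for the brighter probe set at 48 and 72 h, and 1.07 and 0.98 for the other. Centring the arrays on their medians put the first of these at 0.99, so that it lay on the limit of the 2-fold call. Relative to Fosl1 on the same array, Jun was higher than in the control by 2.38 at 48 h and 2.04 at 72 h. Relative to Junb it was higher by 1.34 and 1.59.

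Jund, the JUN gene with the most even expression in most tissues, read 854 in the control tumour and 978, 983 and 1325 after 24, 48 and 72 h. The 72 h tumour stood above the others, by 0.61 over the control and by 0.42 over 48 h, both short of 2-fold. Its dimmer probe set read 53.1, 54.5, 54.1 and 51.7 and did not share this difference.

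Fosl2 encodes FRA2, an AP-1 subunit known for roles in bone, fat and matrix-forming cells. Its brighter probe set read 278 on the control array, 269 after 24 h, 315 after 48 h and 648 after 72 h. The 72 h tumour alone was high, with a difference of 1.13 from the control. The other Fosl2 probe set read 111, 102, 122 and 113 and was level, at 0.02 at 72 h, so the 2-fold call rests on 1 probe set. Averaged over both, Fosl2 was at 0.58 at 72 h. Relative to Fosl1, Fosl2 was higher than in the control by 1.53 at 48 h and 2.59 at 72 h, from the brighter probe set of each.

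**Figure D2:**
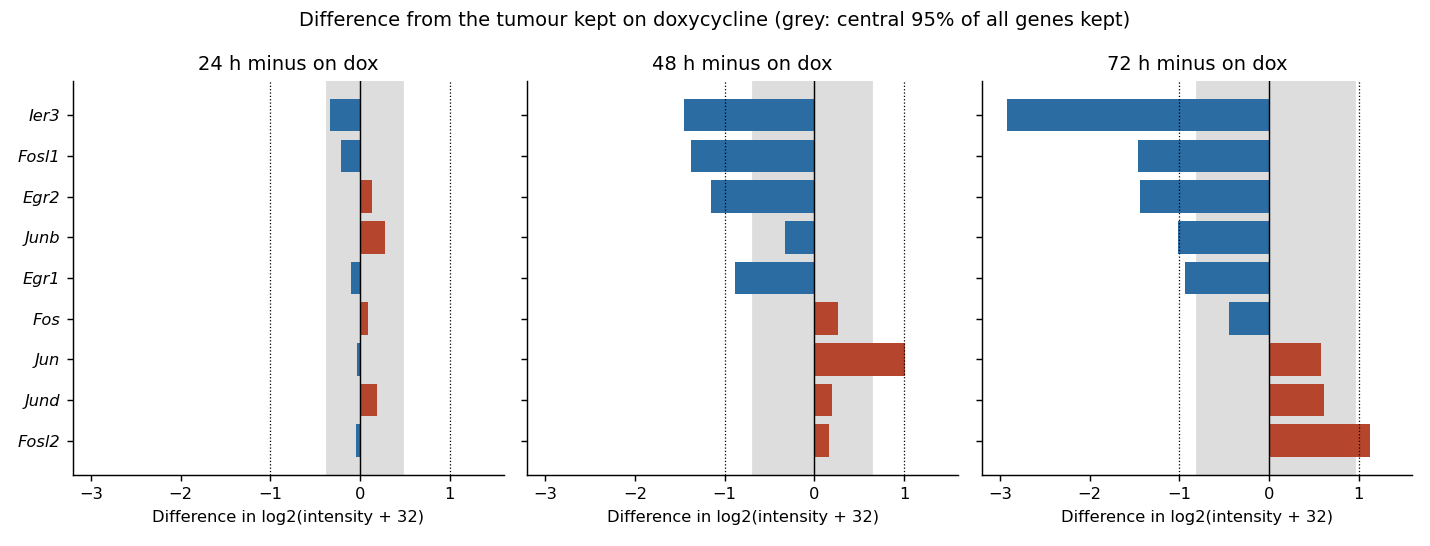
Difference in log2(intensity + 32) between each off array and the control for the 9 members kept, with the central 95% of all 13522 genes in grey and dotted lines at 2-fold. At 24 h all members lie within the grey band; at 48 h Ier3, Fosl1, Egr2 and Egr1 lie below it and Jun above it; at 72 h Ier3, Fosl1, Egr2, Junb and Egr1 lie below it and Fosl2 above it.

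The steps between consecutive times, which leave the control array out, separated the members by when they differed. From 24 to 48 h Egr2, Fosl1 and Ier3 were 2-fold lower, at -1.29, -1.16 and -1.12, and Jun was 2-fold higher, at 1.04. These were 3 of 9 members lower and 1 of 9 higher, where 1.01% and 0.569% of all genes were. From 48 to 72 h Ier3 alone was 2-fold lower, 1 of 9 where 0.214% of genes were, and 0 of 9 were 2-fold higher, where 0.917% were. In that step Fosl2 was at 0.97, Fos at -0.71, Junb at -0.68 and Jun at -0.43, whereas Fosl1 and Egr1 were at -0.08 and -0.05. Both steps use the 48 h array. From 24 to 48 h, a pseudocount 4 times as large left 1 member 2-fold lower and 0 higher, and averaging probe sets left 0 higher. Because the only Ier3 probe set ends in _a_at, leaving such probe sets out left no member 2-fold lower from 48 to 72 h.

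**Figure D3:**
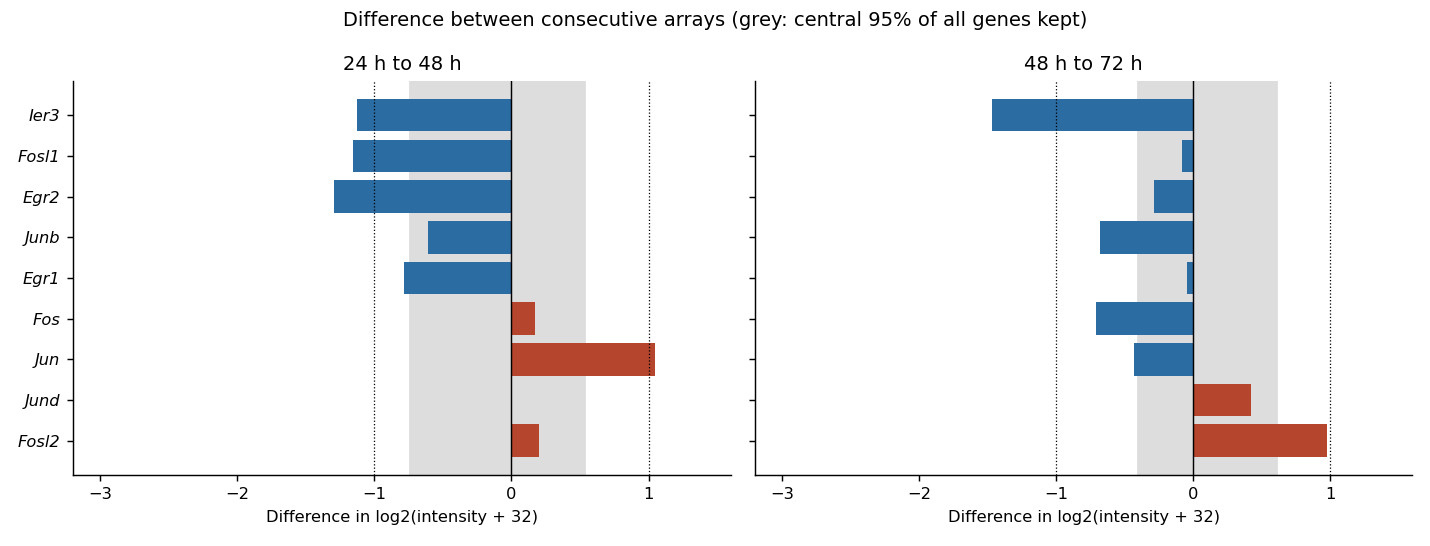
Difference in log2(intensity + 32) from 24 to 48 h and from 48 to 72 h for the 9 members kept, with the central 95% of all genes in grey and dotted lines at 2-fold. Fosl1, Egr1 and Egr2 differ mainly in the first step, Ier3 in both, and Fosl2 and Fos in the second.

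A linear change over the 4 arrays, with the control at 0 h, was tested by limma across all genes. No member passed, and none of the 13522 genes did: 0% were called lower and 0% higher at an adjusted p under 0.05. Without adjustment 4 of 9 members (Ier3, Fosl1, Egr1 and Egr2) had a p under 0.05 and a negative slope, where 6.33% of genes did, and 1 of 9 (Jund) with a positive slope, where 9.22% did. The slope of Ier3 was -0.99 per 24 h (SE 0.146, limma adjusted p = 0.241) and that of Fosl1 -0.55 (SE 0.115, limma adjusted p = 0.253). For the other 7 members the limma adjusted p lay between 0.263 and 0.672. With 2 residual degrees of freedom the fit measures the distance of 4 tumours from a line, not the spread between replicates, and equal values between arrays lower that distance.

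Other immediate early genes were read from a list of 47, of which 44 passed the filter. These had medians of 0.04, -0.15 and -0.32 at 24, 48 and 72 h, where that of all genes was 0.00 each time. At 48 h 5 of 44 were 2-fold lower and 0 of 44 higher, where 1.04% and 0.754% of all genes were, and at 72 h 7 of 44 were lower and 1 of 44 higher, where 1.63% and 2.29% were. Id1, an inhibitor of basic helix-loop-helix factors, had an intensity of 805, 717, 185 and 167 on the control, 24, 48 and 72 h arrays. It had the same early and late pairs as Fosl1 and Egr1. Maff, a small MAF factor, went from 280.5 to 293, 110.0 and 77.5, and Trib1, a pseudokinase, from 320.4 to 249, 134 and 85.5, although a dim second Trib1 probe set was at -0.07 at 72 h. Ier5l read 425, 403, 194 and 88.9, lower at each time, although its other probe set was at only -0.83 at 72 h. Ccn2, which encodes connective tissue growth factor, read 2509, 1845, 2576 and 994, so that only the 72 h tumour was 2-fold lower. Atf3, a stress-induced factor that pairs with JUN, was the only gene of the list 2-fold higher at 72 h. It read 118, 115, 264 and 692 and was highest at 72 h. Some others were above the control at 72 h, but by less than 2-fold. The number of genes 2-fold lower was 1 at 48 h and 4 at 72 h with a pseudocount 4 times as large. It was 4 at 48 h and 5 at 72 h without probe sets that end in _x_at, _s_at or _a_at, as that of Id1 does. The list was chosen with earlier results of these data known, so these counts are not independent evidence of a direction.

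**Figure D4:**
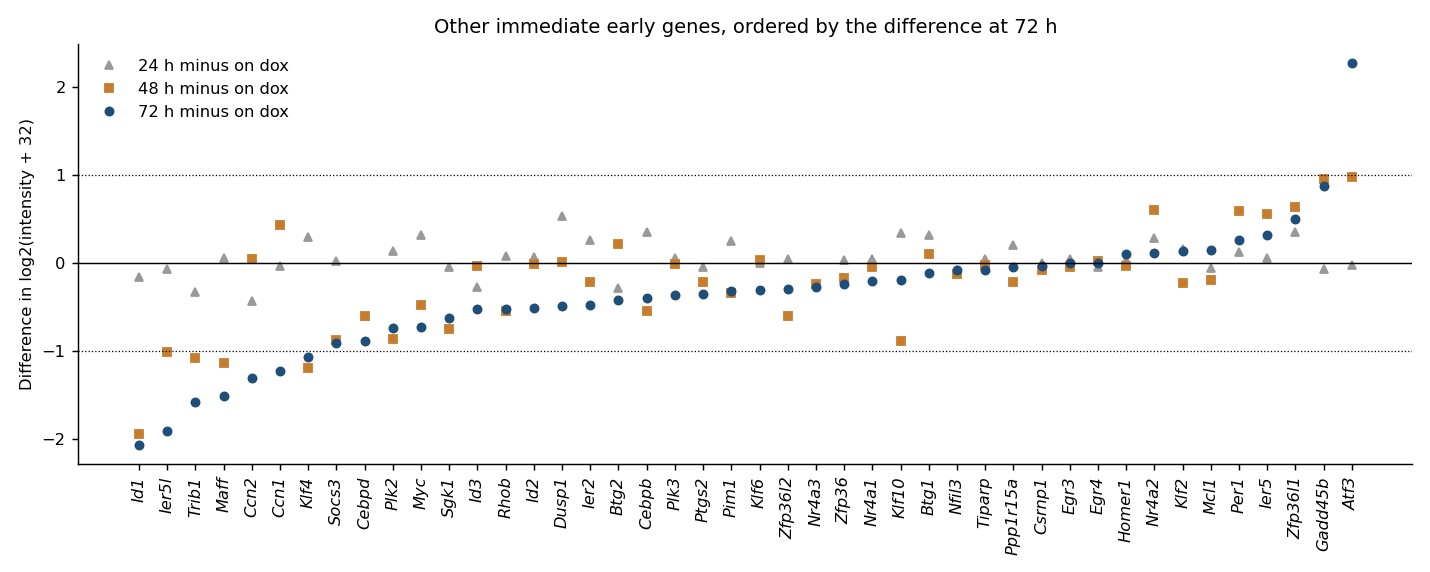
Difference in log2(intensity + 32) from the control at 24 h (triangles), 48 h (squares) and 72 h (circles) for the 44 other immediate early genes kept, ordered by the 72 h value, with dotted lines at 2-fold. At 72 h 7 genes from Id1 to Klf4 lie at or below the lower line and Atf3 alone lies above the upper one.

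Of 16 further genes of the AP-1 family and its partners, 15 were measured above the filter, and their medians were 0.04, 0.03 and 0.05. At 72 h 1 of 15 (Maff) was 2-fold lower and 2 of 15 (Atf3 and Maf) were 2-fold higher, where 1.63% and 2.29% of all genes were. Maf, a large MAF factor that macrophages also express, read 68.9, 108, 167 and 317, and its other probe sets lay between 0.03 and 1.23 at 72 h. Atf2, a partner of JUN on the TGACGTCA element, read 55.0, 117, 132 and 116, above the control at each time, though its other probe sets lay between -0.19 and 0.51. Jdp2 and Creb5 were at 0.25 and 0.22 at 72 h, with other probe sets at -0.03 for Jdp2 and between 0.05 and 0.44 for Creb5.

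Genes that act upstream of the members differed less. Of 16 listed, 10 were measured above the filter, 0 of these were 2-fold different from the control at any time, and their medians were 0.16, 0.07 and 0.04. Srf, the factor that binds the CArG box, read 178, 182, 190.4 and 195. Elk3, a ternary complex factor, was at -0.64 at 72 h, with its other probe sets between -0.27 and -0.20. Elk4, a related factor, was at 0.31 at 72 h, with its other probe sets between -0.07 and 0.09. Mapk9, which encodes the JUN kinase JNK2, read 249, 339, 519 and 487 and had its highest value at 48 h, as Jun did. Its other probe sets were at 0.30 and 0.49 at 72 h. Mrtfb, an SRF cofactor, was at 0.41 at 72 h, with its other probe sets at -0.08 and 0.03. Rps6ka3, an ERK-activated kinase, was at -0.15, with its other probe sets at -0.42 and 0.00.

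Genes described as AP-1 targets were read from a list of 25, of which 17 passed the filter. At 48 h 8 of 17 were 2-fold lower and 0 higher, where 1.04% and 0.754% of all genes were. At 72 h 9 were lower and 1 higher (the matrix gene Tnc, named for this count), where 1.63% and 2.29% were, and the medians were -0.16, -0.58 and -1.34 at the 3 times. This list holds genes that respond to ERK by other routes as well, and it was drawn up with some of their values known, so it is not independent evidence of a direction. Timp1, an inhibitor of metalloproteases, read 7705, 6833, 1620.4 and 942. Ereg, which encodes the EGF receptor ligand epiregulin, read 147, 115, 18.0 and 13.2. Both had a high early and a low late pair, as Fosl1 did. Hmga2, Ccnd1, Hbegf and Plaur were at -4.50, -2.89, -2.46 and -1.90 at 72 h, although another Hmga2 probe set was at -0.65. Not all genes of the list were lower: at 72 h 13 of 17 were below the control and 4 above it. The metalloprotease genes Mmp3, which was dim, and Mmp13 were above it, at 0.66 and 0.36. Mmp9, another, was at 0.90 at 48 h and -0.61 at 72 h. These are named because they did not follow Fosl1.

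Of the 14 genes described as EGR1 targets 12 passed the filter, and their medians, -0.07, -0.08 and -0.08, lay near that of all genes. At 48 h 2 of 12 were 2-fold lower and 1 higher (Thbs1, named for this count), where 1.04% and 0.754% of all genes were. At 72 h 2 were lower and 0 higher, where 1.63% and 2.29% were. Tgfb1, which encodes a growth factor, read 666, 433, 262 and 230, and Pdgfa, a chain of platelet-derived growth factor, read 471, 339, 183 and 206. Another Tgfb1 probe set was at 0.13 and another Pdgfa probe set at -1.13 at 72 h. Gadd45a, F3 and Vegfa were at 0.80, 0.78 and -0.64. Nab1 and Nab2, corepressors that EGR proteins induce and that hold them in check, read 103, 87.7, 87.7 and 95.8, and 296, 283, 232 and 226. On these probe sets both were below the control at each time, by 0.35 or less at 72 h. The 2 other Nab1 probe sets were at -0.02 and 0.31 at 72 h.

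Profiles close to those of 4 members were sought among all genes kept, by the Euclidean distance between log2 values centred on their mean over the 4 arrays. The genes closest to Ier3 were Ccnd1 (0.38), which encodes cyclin D1, the membrane protein gene Tm4sf1 (0.47) and the protease gene Klk8 (0.50). Closest to Fosl1 were Osbpl6 (0.12), Myadm (0.16) and Emp1 (0.16). Closest to Egr1 were Nhp2 (0.04), a subunit of RNA-modifying particles, Emp3 (0.05) and Ranbp1 (0.08), a partner of the GTPase Ran. Closest to Fos were Tspyl1 (0.08), Lratd1 (0.12) and Dpysl3 (0.12). Ier3 thus had no neighbour as near as the other 3 members had. The profiles were not scaled, however, so distances tend to be larger for a profile with a wide range. That of Ier3 was the widest of the members, so its larger distances do not show a distinct time course. A distance over 4 values is a description, and many of the 13522 genes can come near by coincidence.

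Markers of other cells differed between the arrays on which the members differed. The melanocyte list had 7 of 10 genes above the filter. Sox10, a defining factor of the lineage, was bright on all arrays, at 3771, 3613, 4681 and 3844, while the pigment genes Tyr, Tyrp1 and Mlana did not pass the filter. The other melanocyte genes were dim and went both ways: at 48 and at 72 h 3 of the 7 were below the control, 3 above it and 1 equal to it. At 72 h Mc1r, Dct and Slc45a2 were at -0.24, -0.21 and -0.14, and Pmel and Mitf at 1.14 and 0.84. In the order control, 24, 48 and 72 h, the summed intensity of 11 fibroblast and matrix genes was 18508, 19257, 37914 and 69616, and 9 of 11 were 2-fold higher at 72 h, where 2.29% of all genes were. Most of this sum came from collagens, as Col1a1, Col1a2 and Col3a1 read 18005, 16226.5 and 19970 at 72 h. The other 2 genes, Pdgfra and Thy1, were below the control at 48 h (-0.58 and -0.75) and at 72 h (-0.57 and -0.25). The summed intensity of 12 macrophage genes was 5453, 9548, 7720.0 and 14279, with 6 of 12 2-fold higher at 72 h, against the same 2.29%. The 9 skeletal muscle genes summed to 456, 755, 397 and 4656, and the 3 adipocyte genes to 356, 169, 464 and 1668. The 8 endothelial genes summed to 893, 815, 875 and 1263, the 5 keratinocyte genes stayed between 232 and 254 and the 2 neutrophil genes between 101 and 105. The muscle, fat, matrix, macrophage and endothelial genes thus all had their highest sums at 72 h, the array on which Fosl2 was high. Matrix genes were already higher at 48 h, as Jun was. From 48 to 72 h, however, the matrix sum rose further while Jun was lower. The part of these cells in the values of Fosl2, Jun, Jund, Maf and Atf3 was not tested. The part of a change in tumour cell content in the lower values of Ier3, Fosl1, Egr1 and Egr2 was not tested either.

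**Figure D5:**
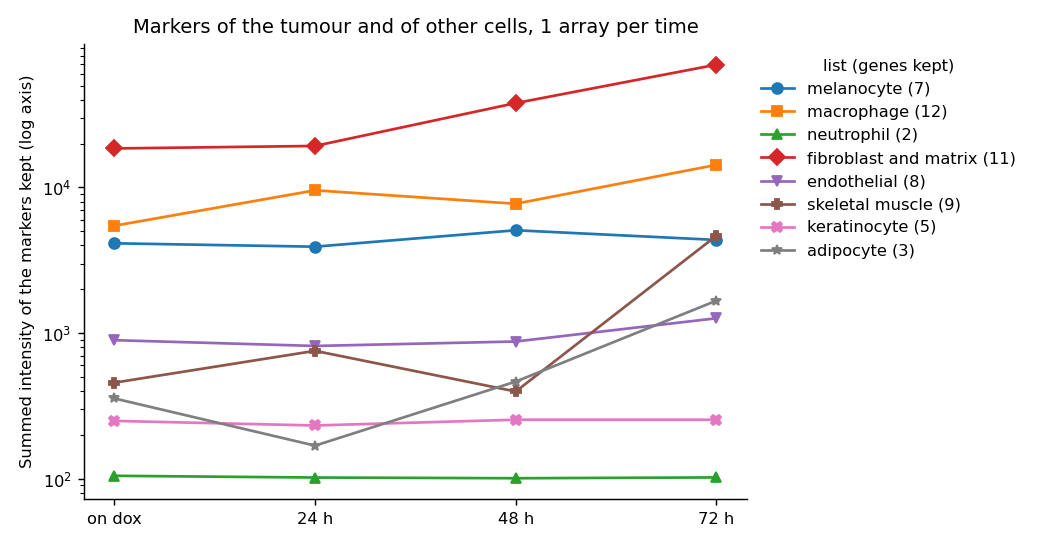
Summed intensity (log axis) of the marker genes kept in each of 8 lists on the control, 24, 48 and 72 h arrays, 1 array each. Muscle markers are at most 755 up to 48 h and reach 4656 at 72 h, matrix markers climb from 18508 to 69616, and the melanocyte sum, between 3917 and 5078, is mostly the value of Sox10 (3771 of 4132 on the control).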

How the data were processed

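Total RNA from 1 frozen tumour piece of about 50 mg per condition was hybridised, as biotin-labelled cRNA made from 10 ug, to Affymetrix mouse arrays. The deposited values are linear intensities, 1 for each probe set on each array. Per the submitters' processing notes MAS5 and RMA were used, with no role or version, so the scaling between arrays is not known. Symbols came from the platform annotation, and only the 34945 probe sets with a single symbol named genes. The brightest probe set by mean stood for a gene, and genes were kept whose mean reached the 40th percentile, an intensity of 24.9. Differences used log2 of intensity plus 32. Each array was 1 sample of its condition, so comparisons between arrays had no test; the trend over hours used limma 3.58.1 in R 4.3.3 (lmFit, eBayes with trend, Benjamini-Hochberg), tested on simulated data. Python 3.11.15 and pandas 2.3.3 were used elsewhere. Alternatives were other pseudocounts, quantile normalization, median centring, other filters and probe set rules, a 1.5-fold limit, and for the trend each off array left out, no eBayes trend and the off arrays as one group. Of each pathway list up to 6 genes with the greatest difference at 72 h were named, with the 3 genes nearest to each of 4 members. The members and lists were chosen with earlier results of these data known. Genes without a single-symbol probe set were not used here.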

Additional observations from a re-analysis of the deposited data

How the results depend on the processing

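Of 27 differences of members from the control, 1 changed sign under any of the 9 settings of scale, filter and probe sets: Jun at 24 h, from -0.04 to 0.08 with the mean over probe sets. Other pseudocounts and level filters cannot change a sign. Leaving out _x_at, _s_at and _a_at probe sets dropped Ier3 and left the values of the other members as they were. Only quantile normalization, median centring and averaging of probe sets could thus have changed a sign. With a pseudocount 4 times as large the members 2-fold lower were 1, 1 and 1 (3, 4 and 3 otherwise) at 48 h, at 72 h and from 24 to 48 h, those higher were 0, 0 and 0 (1 each), and the other immediate early genes lower were 1 and 4 at 48 and 72 h (5 and 7). With a pseudocount of 8, and with none, 1 member (otherwise 0) was higher from 48 to 72 h and 2 other immediate early genes (otherwise 0) at 48 h; with none, 2 (otherwise 1) were higher at 72 h. Median centring left 0 members higher at 48 h. Averaging probe sets left 1 member lower at 48 h, 0 higher at 72 h and 0 higher from 24 to 48 h, and 2 and 4 other immediate early genes lower at 48 and 72 h. Without _a_at probe sets 0 members were lower from 48 to 72 h (otherwise 1), since Ier3 has no other. At 1.5-fold 2 members were higher at 72 h, and of the other immediate early genes 1, 11 and 12 were lower and 0, 5 and 2 higher at 24, 48 and 72 h. For the trend, limma called 0 members in every setting run, each off array left out included. With 1 array per condition no replicate could be left out, and dim probe sets such as Fosb limit what can be read.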

Other observations

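Some genes of the other immediate early list that the text has not described are named here because of their values. Ccn1, which encodes a matrix-associated protein and is a target of SRF and YAP, read 331, 322, 454 and 122 on doxycycline and at 24, 48 and 72 h. Its probe set ends in _x_at. Like Fos and Ccn2, Ccn1 was highest at 48 h and lowest at 72 h. Klf4, a Kruppel-like factor, read 149, 191, 47.0 and 54.1, highest at 24 h as Egr2 and Junb were. Klf10, a related factor induced by TGF-beta, read 151, 198, 66.7 and 127, and was lowest at 48 h. Gadd45b, a stress-response gene, read 118, 111, 258 and 242, with the early and late pairs of Jun. None of these time courses was tested.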
